A study of Mus musculus with 6 samples.

Results

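Luzp1, Prkcb, Tns3, Baiap2l1 and Gsap are 5 mouse genes that each had 3 or more nearby regions of open chromatin listed as less accessible in cells carrying the receptor mutation of fibrodysplasia ossificans progressiva (FOP). They were 5 of 21887 protein-coding genes, and held 17 of the 556 regions on the authors' list of less accessible regions, called lost below. A region was given to a gene when its midpoint lay inside the gene's GRCm38 span. A region outside all spans was given to the nearest one within 100 kb. These counts of lost regions chose the genes, so they are a description and no test was run on them. In all, 6 genes, or 0.0274% of those examined, reached 3 lost regions. The sixth was Arhgef10l, a guanine nucleotide exchange factor gene, with 3. Just below the threshold were 25 genes with 2 lost regions, so that 0.142% of genes had 2 or more, and 405 genes had 1.

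Accessibility was measured by ATAC-seq, in which a transposase inserts sequencing adapters into open DNA. The cells were embryonic fibroblasts from E13.5 mice, grown in serum-containing medium. The FOP mutant group, 3 libraries, was Acvr1R206H/+, heterozygous for the mutation in every cell. The wild-type group, 3 libraries, was Acvr1+/+. The labels call the libraries biological replicates, without saying whether each came from its own embryo. The deposited lists give positions and a direction, and no read count, signal or value per library. The depth is therefore unknown, and no difference below could be set against the spread between libraries. The 2965 regions of the other list, more accessible in mutant cells, are called gained, and 15.8% of all 3521 listed regions were lost. Because the lists hold differential regions alone, they cannot show whether fibroblast markers were open. Of 10 such markers, 0 had a lost region and 3 had gained ones, with 2 at Lum and 1 each at Dcn and Fn1, where 1.99% of all protein-coding genes had a lost and 7.27% a gained region. Of 25 markers of blood, epithelial, neuronal and endothelial cells, Itgam and Cdh5 had 1 lost region each and Map2 had 1 gained region. The part of other cell types in the lists was not tested.

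Acvr1 encodes a type I receptor for bone morphogenetic proteins, and the FOP mutation makes its signalling overactive. Open regions inside and around a gene often hold enhancers, which bind transcription factors and act on a promoter at a distance, so the gene nearest to a region need not be the one it regulates. The products of 3 of the genes work at the actin cytoskeleton or at cell adhesions. Luzp1 encodes a leucine zipper protein that binds actin filaments and is also found at centrosomes and cilia in cultured cells. Tns3 encodes a tensin, which couples integrins at adhesions to actin. Baiap2l1 encodes an I-BAR protein that curves membranes and recruits actin regulators. Of the others, Prkcb encodes protein kinase C beta, a kinase switched on by calcium and diacylglycerol. Gsap encodes the gamma-secretase activating protein, named for its reported action on the protease that cuts the amyloid precursor.

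No listed region of either direction lay on the promoter of any of the 5 genes, and few did on any promoter: 9 of 534 lost regions (1.69%) and 23 of 2846 gained regions (0.808%) on the chromosomes of the promoter table. The promoter table holds short windows, from 250 bases before a start to 50 after it. No share was available for open regions in general, so nothing is read from these low shares. The promoter sequences are shown because they fix the annotated starts, and because the genes differed there in CpG content. Distances before or after a start are counted from these starts. Distances from a gene or its span, and percentages of its length, are counted from the span's edges. These are the 250 bases before the annotated start, 5′ to 3′ on the coding strand, from RefSeq (GRCm38.p6), with each CpG in capitals. They lie at chr4:136469511-136469760 on the plus strand for Luzp1, at chr7:122288875-122289124 on the plus strand for Prkcb, and at chr5:21176029-21176278 on the plus strand for Gsap.
Luzp1: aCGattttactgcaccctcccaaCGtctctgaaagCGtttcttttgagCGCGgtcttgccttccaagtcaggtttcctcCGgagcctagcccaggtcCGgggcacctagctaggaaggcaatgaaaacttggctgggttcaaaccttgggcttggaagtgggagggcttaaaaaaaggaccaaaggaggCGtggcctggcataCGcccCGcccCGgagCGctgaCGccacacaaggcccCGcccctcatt
Prkcb: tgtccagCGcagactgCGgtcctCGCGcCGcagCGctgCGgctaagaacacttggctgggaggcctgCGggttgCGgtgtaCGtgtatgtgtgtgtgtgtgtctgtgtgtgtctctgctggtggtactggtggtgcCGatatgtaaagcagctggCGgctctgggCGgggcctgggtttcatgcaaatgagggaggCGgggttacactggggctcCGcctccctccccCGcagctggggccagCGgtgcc
Gsap: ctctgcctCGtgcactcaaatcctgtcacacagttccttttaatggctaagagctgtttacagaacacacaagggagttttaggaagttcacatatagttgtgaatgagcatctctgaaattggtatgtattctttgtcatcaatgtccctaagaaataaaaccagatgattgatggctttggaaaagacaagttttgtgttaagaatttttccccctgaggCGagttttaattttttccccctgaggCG
The window held 14 CpGs at Luzp1 and 17 at Prkcb but 3 at Gsap, where the median over 32851 such windows was 6. The windows of Tns3 and Baiap2l1, on the minus strand, held 24 and 21 CpGs. Their G and C content was 69.6% and 70.4%, against 58.4% at Luzp1, 65.2% at Prkcb and 39.6% at Gsap. At the starts used, the 5 genes thus did not share a common promoter composition. Of all windows, 11% had a lower G and C content than Gsap and 91.2% a lower one than Baiap2l1. Only the first listed start of each gene was used, where the 32851 windows belong to 27025 genes. The windows of Luzp1 and Gsap lay inside the gene's span, so these were not the outermost starts, and other starts were not examined.

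**Figure D1:**
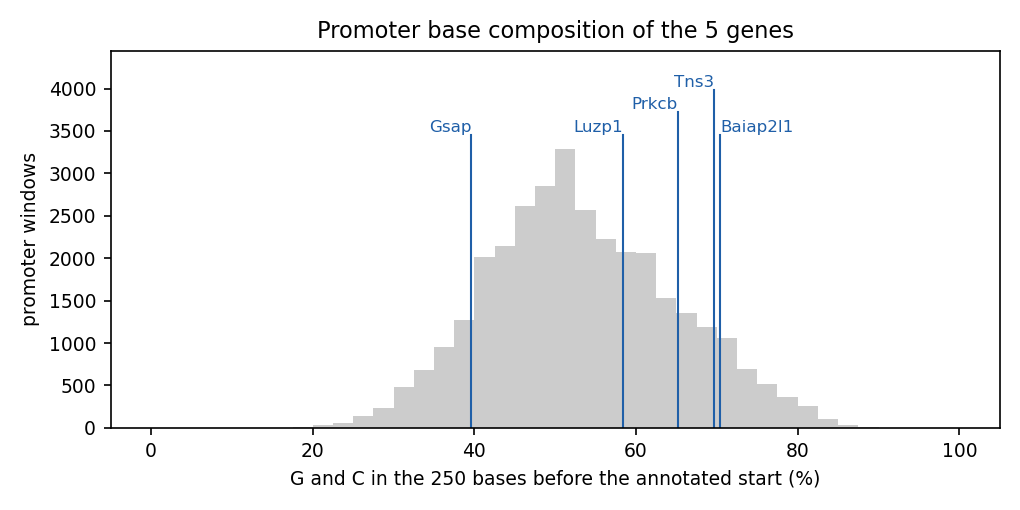
Share of G and C in the 250 bases before the annotated start, in percent, against the number of promoter windows (grey bars, 32851 windows). Blue lines mark the 5 genes: Gsap, at 39.6%, lay below the median of 52.4% and the other 4 above it.

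On both strands the windows were searched for the letters of sites of AP-1 (TGANTCA), TEAD (GGAATG), RUNX (TGTGGT) and SMAD proteins (GGCGCC and GTCTG), and for the E-box (CANNTG). None of the first 4 was found in the 5 windows, and they occur in 6.75%, 12.6%, 14% and 9.59% of all windows. GTCTG, which 42.2% of windows hold, matched at 2 places in the Prkcb window and at none in the other 4. The E-box, in 66.2% of windows, matched at 4 places at Prkcb, 2 each at Tns3 and Baiap2l1, 1 at Gsap and 0 at Luzp1. No match of one motif overlapped a match of another in the 5 windows. These matches describe the letters alone.

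At Luzp1 (gene ID 269593, chr4:136462609-136554725, plus strand) 4 lost regions lay within the gene, in its middle and later part. The first, chr4:136505355-136506372, was 1018 bp wide and lay 36.1 kb after the annotated start. The next, chr4:136517923-136518560, lay 48.5 kb after it and was 638 bp wide. Then came the narrow region chr4:136522875-136523202, of 328 bp, 53.3 kb after the start. The last, chr4:136535161-136535958, lay 65.8 kb after the start and was 798 bp wide. All 4 fell between 47% and 79.2% of the gene's length, counted from the edge of its span, within which the annotated start lies. The steps were 12.4, 4.8 and 12.5 kb, in a gene of 92.1 kb. Luzp1 held 4.34 lost regions per 100 kb inside its span, the highest density of the 5 genes. All protein-coding spans together held 0.025 per 100 kb, and as the genes were chosen by these counts nothing is read from the gap. No gained region was linked to Luzp1, and the nearest lay 95.4 kb beyond the gene.

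Luzp1 also had lost regions on either side of it. One was chr4:136450280-136450634, 12.2 kb before the span, linked to the serotonin receptor gene Htr1d. Another was chr4:136598254-136599522, 44.2 kb after the span and inside Kdm1a, the gene of a histone lysine demethylase that overlaps the end of Luzp1. With these, 6 lost regions and 0 gained regions lay in 148 kb. Windows of that length were opened at each of the 556 lost regions, a length taken from this stretch after its values were seen. Of these windows, 1 held 6 lost regions, and elsewhere in the genome none held more than 3. The rule chose Luzp1 by 4 of these 6 regions, so nothing is read from this rank. Within 500 kb of Luzp1 there were 8 lost and 4 gained regions. The gained ones were linked to Id3, an inhibitor of helix-loop-helix factors and a classical target of BMP signalling (1 region, 328 kb from Luzp1), to Hnrnpr (1 region) and to the ephrin receptor gene Ephb2 (2 regions).

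Tns3 (gene ID 319939, chr11:8431652-8664758, minus strand) had its 3 lost regions together near the end of the gene. They were chr11:8463114-8463645 (532 bp), chr11:8451296-8452157 (862 bp) and chr11:8443422-8444250 (829 bp). These lay 201, 213 and 221 kb after the annotated start, at 86.4%, 91.4% and 94.8% of the gene's 233 kb. Neighbours were 11.7 and 7.89 kb apart, so that the first to last covered 8.38% of the gene.

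Tns3 was the only one of the 5 genes linked to gained regions, which it had in equal number, 3. Here 7.27% of all protein-coding genes had a gained region. A gained region inside the gene, chr11:8539650-8540340 (691 bp), lay 125 kb after the start, at 53.5% of the length. The other 2 lay before the start, chr11:8676141-8676501 (361 bp) by 11.8 kb and chr11:8703779-8704344 (566 bp) by 39.5 kb. The directions were therefore not mixed along the gene: all 3 gained regions lay nearer the start, or before it, and all 3 lost regions after them. The smallest distance between a lost and a gained region was 76.6 kb. Within 500 kb of Tns3 there were 3 lost and 7 gained regions, the one of the 5 surroundings with more gained than lost. Of all listed regions 15.8% were lost, and the rule placed 3 or more lost regions at each gene, so nothing is read from this.

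Baiap2l1 (gene ID 66898, chr5:144264525-144358112, minus strand) had a close pair of lost regions inside the gene and a single one before it. The single region, chr5:144372129-144372664 (536 bp), lay 14.3 kb before the annotated start. The pair, chr5:144287252-144287840 (589 bp) and chr5:144283385-144284121 (737 bp), lay 70.6 and 74.4 kb after the start, at 75.4% and 79.5% of the length. The members of the pair were 3.79 kb apart and the single region was 84.8 kb from them. The starts of the long non-coding genes Gm15708 and Dmrt1i were nearer to these regions than that of Baiap2l1, at 6.69 and 10.5 kb for the pair and 13.9 kb for the single region. With links limited to the span or to 10 kb, Baiap2l1 had 2 lost regions. The count was also 2 when all annotated genes competed or regions within 10 kb were merged, and 1 by the nearest gene end. No gained region lay within 500 kb of Baiap2l1, and the nearest was 665 kb from the gene.

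Prkcb (gene ID 18751, chr7:122289104-122634402, plus strand) is the longest of the 5 genes, at 345 kb, and its 4 lost regions were the most widely spread. The first 2, chr7:122297642-122298210 (569 bp) and chr7:122304515-122304932 (418 bp), lay 8.8 and 15.6 kb after the annotated start, within the first 4.52% of the length. The other 2 were chr7:122415407-122415822 (416 bp), 126 kb after the start, and chr7:122562550-122563352 (803 bp), 274 kb after it. The steps were 6.8, 111 and 147 kb. Of all 17 lost regions, the first at Prkcb lay nearest to the start of its own gene, and it lay 1.58 kb from the start of Gm51497, a long non-coding gene inside Prkcb. The gene held 1.16 lost regions per 100 kb. No gained region lay within 500 kb of Prkcb, whose nearest was 739 kb away.

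At Gsap (gene ID 212167, chr5:21176019-21291737, plus strand) the count of 3 rested on a pair of regions outside the gene and on how close regions were counted. A pair before the gene, chr5:21144453-21145066 (614 bp) and chr5:21145197-21145611 (415 bp), was separated by 130 bp. These lay 31.5 and 30.9 kb before the annotated start, and the first overlapped the long non-coding gene Gm42222. The third, chr5:21245288-21245668 (381 bp), lay inside Gsap, 69.2 kb after the start and at 60% of the length. With regions within 1 kb merged, Gsap had 2 lost regions. It had 1 when links were limited to the span or to 10 kb, or when all annotated genes competed for a region. No gained region was linked to it, and the nearest was 187 kb from the gene. Within 500 kb there were 4 lost and 3 gained regions, of which 1 lost and 1 gained were linked to Phtf2 and the other gained ones to Fam185a and Napepld.

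**Figure D2:**
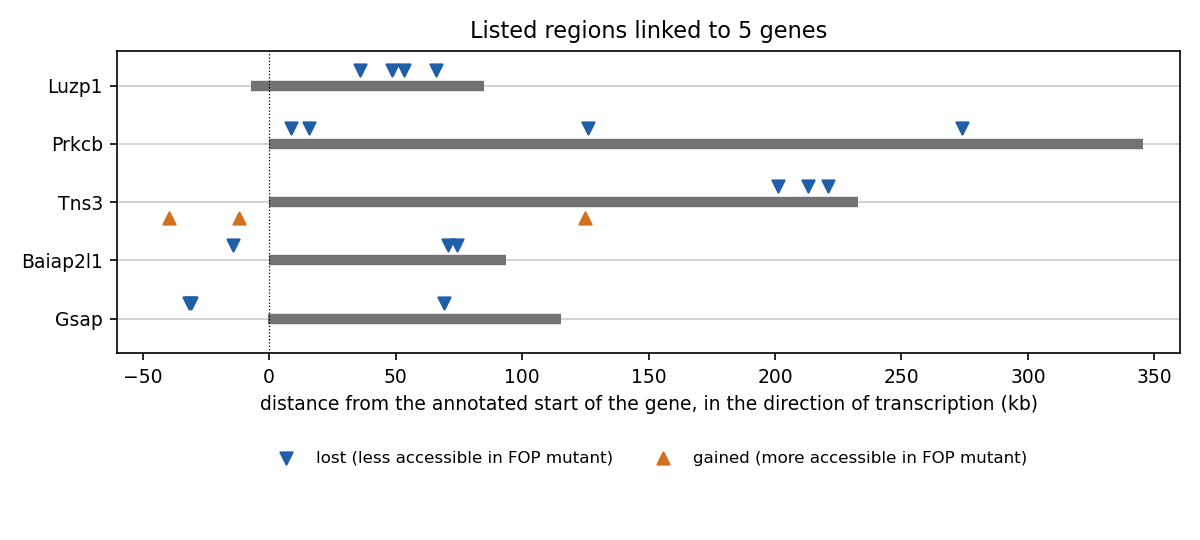
Listed regions linked to each gene (rows), by distance from its annotated start in the direction of transcription, in kb. Grey bars are gene spans, blue triangles lost and orange triangles gained regions: the 4 lost regions of Luzp1 lie in one stretch, the 3 of Tns3 at the far end of the gene from its gained regions, and those of Prkcb over 265 kb.

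Over the 5 genes, 14 lost regions lay inside the span and 3 before the gene, at Baiap2l1 and Gsap. Of all 556 lost regions, 258 (46.4%) lay inside a protein-coding span. As the genes were chosen by count, nothing is read from the difference. Neighbouring lost regions of a gene gave 12 spacings with a median of 12 kb and a range of 0.645 to 147 kb. Of these, 8 were under 15 kb, called close, and 4 over 80 kb, called far. Both limits lie in the gap from 12.5 to 84.8 kb in these same spacings, so the split only describes them. With these limits, each of the 5 genes had a close spacing. At Luzp1 and Tns3 all spacings were close, while Prkcb, Baiap2l1 and Gsap also had far ones. Arhgef10l differed in this, with steps of 143 and 74.1 kb and no close neighbours. Its regions lay 28.9 and 103 kb after the start, inside the gene, and 94.5 kb beyond the end of the span.

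Genes with 2 lost regions gave 25 spacings with a median of 24.2 kb, of which 12 (48%) were under 15 kb. Gained regions at the 158 genes with 3 or more of them (0.722% of genes) gave 421 spacings with a median of 49.6 kb, of which 102 (24.2%) were under 15 kb. The 5 genes had a median length of 116 kb, against 109 kb for the genes with 2 lost regions and 272 kb for those with 3 or more gained regions. The part of gene length in the spacing was not tested. These medians and shares were not tested against each other, because the genes were chosen by counts from the same lists. The 15 kb limit also lies in a gap of the 5 genes' own spacings.

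**Figure D3:**
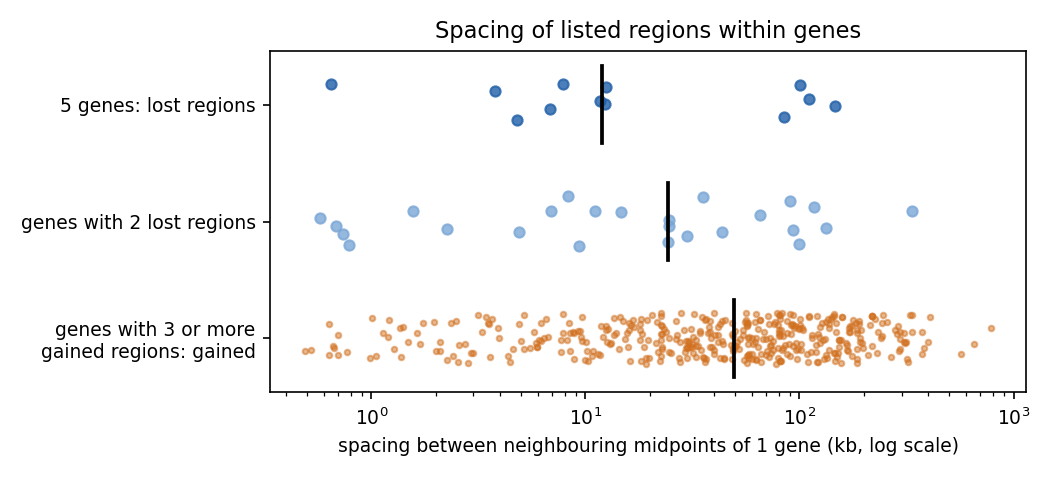
Spacing in kb (log scale) between neighbouring midpoints of one gene, with 1 point per spacing and a black line at the median. The 12 spacings of lost regions at the 5 genes had a median of 12 kb, against 24.2 kb at genes with 2 lost regions and 49.6 kb for gained regions at genes with 3 or more.

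Lost regions of the 5 genes had a median width of 589 bp, from 328 to 1018 bp, and that of the other 539 lost regions was 611 bp. The median distance of the 17 to the nearest annotated start of any gene was 48.5 kb, against 24.3 kb for 517 other lost regions on chromosomes of the promoter table. This difference was not tested, nor was the part of gene length in it. For 8 of the 17 the nearest start was that of the gene they were linked to, all 4 at Luzp1, all 3 at Tns3 and 1 at Gsap. Most had another lost region close by, as the rule favours. A neighbour within 15 kb, the limit described above, was found for 13 of 17, against 26 of 539 other lost regions (4.82%).

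Gained regions were sought between and beside the lost regions. The 12 intervals between neighbouring lost regions of the 5 genes, 504 kb in all, held 0 gained regions, and so did the 25 intervals at genes with 2 lost regions, 1177 kb in all. The 0 at the 5 genes is thus not particular to them. The whole genome held 2965 gained regions, and their rate over stretches of equal length elsewhere was not computed. Nothing is therefore read from the counts of 0. The distance from a lost region to the nearest gained region had a median of 301 kb over the 17, from 76.6 to 1013 kb, and of 348 kb over the other 539. A gained region lay within 100 kb of 3 of the 17, all at Tns3, and of 124 of the 539 (23%). The nearest one was over 200 kb away for 10 of the 17 and for 343 of the 539 (63.6%). No share at 500 kb was taken for other genes, so the lack of gained regions around Prkcb and Baiap2l1 is not called particular to them. The range of the 17 distances lay within that of the others, and the difference in medians was not tested.

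**Figure D4:**
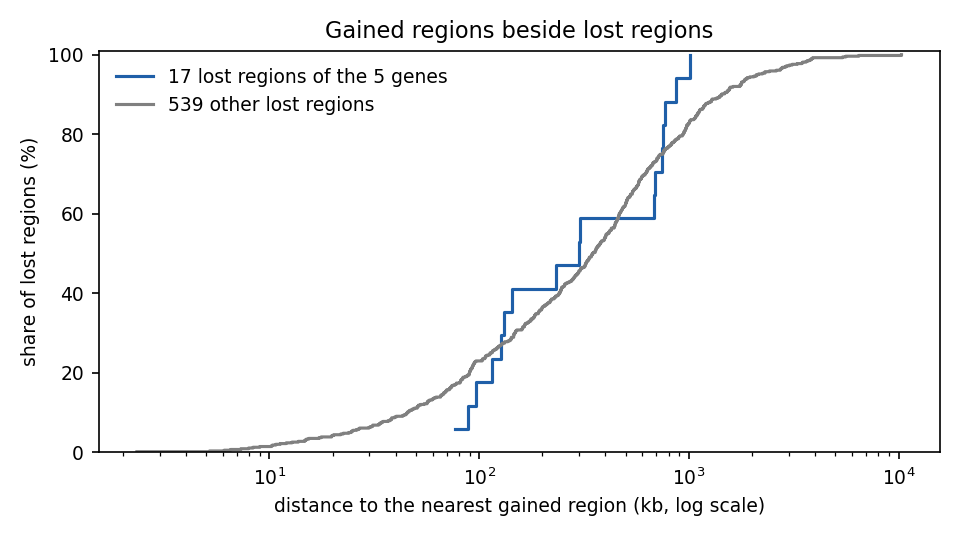
Cumulative share of lost regions, in percent, by distance to the nearest gained region in kb (log scale), for the 17 lost regions of the 5 genes (blue) and the 539 others (grey). The medians were 301 and 348 kb, and the blue line has no point below 76.6 kb.

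**Figure D5:**
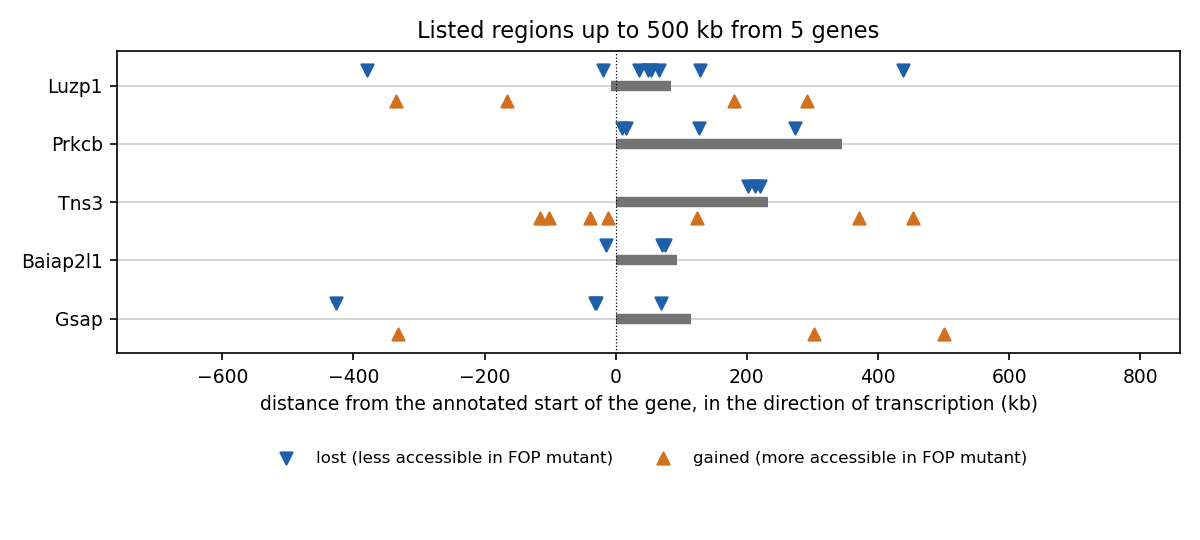
All listed regions up to 500 kb from each gene, by distance from its annotated start in the direction of transcription, in kb; grey bars are gene spans, blue triangles lost and orange triangles gained regions. Prkcb and Baiap2l1 have no gained region in view, and Tns3 has 7.

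Across the genome, the share of genes that also had a gained region was taken by number of lost regions. A gained region was linked to 1 of 6 genes with 3 or more lost regions (16.7%), to 5 of 25 with 2 (20%), to 74 of 405 with 1 (18.3%) and to 1511 of 21451 with none (7.04%). The median gene length was 134, 109, 54.3 and 16.9 kb in these classes. Of the 158 genes with 3 or more gained regions, 11 (6.96%) had a lost region, against 1.99% of all genes. Tns3 was among them, with the 3 gained regions given above. The part of gene length in these shares was not tested.

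Of the 10 nearest protein-coding genes on either side of the 5 genes, Htr1d and Kdm1a beside Luzp1 had 1 lost region each. On the sides of Tns3, Igfbp3, the gene of a growth factor binding protein that lies 1216 kb away, had 1 gained region and Pkd1l1, 161 kb away, had 2. With 10 genes, these counts of 2 in each direction say little beside the 1.99% and 7.27% of all genes. The neighbours of Prkcb (Chp2 and Cacng3), Baiap2l1 (Bri3 and Nptx2) and Gsap (Ptpn12 and Ccdc146) had none of either direction.

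Listed regions were also counted at relatives and partners of the 5 genes and at other genes of focal adhesion and actin assembly. In 7 lists of such genes, chosen with earlier results of these data known, 60 other genes were counted. Of these, 2 (3.33%) had a lost region and 7 (11.7%) a gained one, against 1.99% and 7.27% of all protein-coding genes. With so few genes, these shares are called neither near nor above those of all genes, and the difference was not tested. Among 11 other protein kinase C and D genes, 0 had lost regions. Gained ones were linked to Prkd1, a diacylglycerol-activated kinase (2), to Prkca (1) and to Prkce (1). The 3 other tensin genes, Tns1, Tns2 and Tns4, had no listed region of either direction.

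Among the 4 other genes of the I-BAR group, Mtss1, whose product also shapes membranes at actin, had 1 lost and 2 gained regions. Of 16 genes of actin assembly, Cdc42, a small GTPase, had 1 lost region, and none had a gained one. The 14 other focal adhesion genes had no lost region, and gained regions at Dlc1, a GTPase-activating protein (2), and at the talin gene Tln2 (1). The 5 partners of the Luzp1 product on the list, Lima1, Flna, Dapk3, Actr2 and Actr3, had none of either direction. Of 7 genes of gamma-secretase and its substrate, App had 1 gained region and the others none.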

How the data were processed

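ATAC-seq was done on 3 FOP mutant and 3 wild-type fibroblast libraries. The authors deposited a pair of lists of region positions in base pairs, 1 per direction, with no header. Direction was taken from each list's name. Per the submitters' processing notes, the builds were mm10 and GRCm38 and the tools were Bowtie2, MACS2, DESeq2, Trimmomatic, SAMtools, featureCounts and bedtools. Not given in the sources used here are their versions, the cutoffs, any correction for the transposase offset, and whether libraries were pooled for peak calling.

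Positions were made 1-based and linked by midpoint to the 21887 protein-coding spans of RefSeq GRCm38.p6 on chromosomes 1 to 19, X and Y (Python 3.11.15, pandas 2.3.3). A region inside overlapping genes counted for each (2 lost, 16 gained). Strand and starts came from the RefSeq promoter table, with its first entry for a gene used as that gene's own start. Exons, introns and sequences of the regions were not used here. In simulated data the linking recovered all 200 genes with regions planted inside spans that overlapped no other gene. Overlapping genes, such as Luzp1 and Kdm1a, were not covered by this check. No test was run, since the lists hold no value per library and the genes were chosen from them. The genes and lists were chosen with earlier results of these data known. Named by rule are the 5 genes, any other gene with 3 or more lost regions, the nearest genes on either side, and list members with a region. Genes linked to more distant regions, and those with 2 lost regions, were chosen after their values were seen.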

Additional observations from a re-analysis of the deposited data

How the results depend on the processing

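Across 8 alternative ways of linking or merging regions, 58 of 72 values stayed within 1.5 times the reported one. Of the 14 that moved, 9 were totals over the 5 genes, counts of genes at the threshold or the median spacing. A fall from 3 to 2 lost regions lies within 1.5 times, although the gene then misses the threshold. Examples were Baiap2l1 inside spans only, Tns3 with regions within 10 kb merged and Gsap with regions within 1 kb merged. The lost regions of the 5 genes, 17 as reported, numbered 11 when linked by the nearest gene end, where Luzp1 and Baiap2l1 kept 1 each. The genes with 3 or more were then Prkcb, Tns3, Gsap, Arhgef10l and Kdm1a, the gene that overlaps the end of Luzp1. Their gained regions, 3 as reported, numbered 1 inside spans only, 1 within 10 kb and 5 at any distance. Genes with 3 or more lost regions, 6 as reported, numbered 3 inside spans only, 3 within 10 kb and 3 when all annotated genes competed, each time Luzp1, Prkcb and Tns3. They numbered 3 with regions within 10 kb merged, namely Luzp1, Prkcb and Arhgef10l. That merging moved the median spacing, 12 kb as reported, to 86.8 kb, since it joins close neighbours by construction. With regions within 1 kb merged, Gsap fell below the threshold. No paired analysis was possible because the lists hold no values per library, and for the same reason no library could be left out. Depth is unknown, so a gene without a listed region may hold regions that changed without passing the authors' cutoff.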

Other observations

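Just under the threshold were 25 genes with 2 lost regions, described here by genes chosen after their values were seen. In 12 of them the regions lay less than 15 kb apart. The closest were 0.578 kb apart at Fam110c, 0.682 kb at Samd12, 0.734 kb at Efcab5 and 0.785 kb at Gfod1, with gaps of 91 to 252 bp between their edges. At Ebf2, a transcription factor gene of mesenchymal and fat cells, they lay 2.25 kb apart inside the gene. At Bnc1, a zinc finger gene, they lay 9.33 kb apart outside it. At Mapk6, an atypical MAP kinase gene, they were 35.4 kb apart. Both regions were inside the gene in 11 of the 25, where 46.4% of all lost regions, taken singly, lay inside a protein-coding span. Gained regions were linked to 5 of them, with 3 at Arhgap26, 2 each at Samd12 and Pde4b, and 1 each at Dlgap1 and Frmd4a.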
